A study of Mus musculus with 14 samples.

Results

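The genes described here encode the proteins of the cytosolic ribosome. They were chosen by symbol: names of the form Rpl, Rps or Rplp followed by a number and at most a short letter suffix, plus Rpsa, in a table of protein-coding genes from mouse CD4+ T cells. The rule took 82 of 22048 genes: 48 of the large subunit, 31 of the small subunit and the 3 genes of the stalk. Of these, 80 had enough counts to be tested among 12343 genes. The remaining 2 were Rpl10l, with 0 counts in every library, and Rpl3l, with 0 to 3. Copies with other suffixes such as Rps27rt, the fusion gene Fau, and the mitochondrial ribosomal protein genes fall outside the rule.

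A ribosome holds a single copy of most of these proteins, bound to ribosomal RNA, and their mRNAs are among the most abundant in a cell. Many of those mRNAs start with a run of pyrimidines, the TOP tract, through which mTORC1 signalling controls how strongly they are translated. In naive T cells, activation through the antigen receptor raises Myc, ribosome assembly and protein synthesis before the cells divide.

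The study used C57BL/6 mice in which YFP reports the cytokine interferon-gamma (IFN-g), and took CD4+ T cells from their spleens and peripheral lymph nodes. Sorted naive cells (CD4+ CD44- CD62L+) gave 3 libraries. All other libraries came from enriched CD4+ T cells that spent 4 days under Th1 conditions. Their plates were coated with anti-CD3 and with anti-CD28, each at 1 µg/ml. The medium held the cytokines IL-12 and IL-2 at 10 ng/ml apiece, with 10 µg/ml of anti-IL4. Each culture also received 1 µM of either SGC0946, which inhibits DOT1L, a histone H3 methyltransferase, or its inactive control compound SGC0649, before sorting by the reporter into YFPneg and YFPpos cells. There were 2 libraries of YFPneg SGC0649 and 3 each of YFPneg SGC0946, YFPpos SGC0649 and YFPpos SGC0946. The cultured cells had therefore been stimulated and given cytokines in every group, and an untreated culture was not analysed here. The labels do not give the age of the mice or say which libraries came from separate animals, so p-values measure the spread between these libraries. Levels are in counts per 1000000 (CPM), scaled by the TMM method, and are relative to the other genes of a library. In bulk libraries, fewer cells of a type and less RNA per cell cannot be told apart.

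Libraries held 14486577 to 31614057 counts. Summed T cell markers reached 3080 to 5572 CPM with none of 8 genes at 0, and B cell, erythroid and platelet markers stayed at or below 2.61 CPM. The CD8 T cell list summed to 4.76 to 19.7 CPM and the myeloid and dendritic cell list to at most 9.81 CPM. The NK cell list summed to 0.617 to 12.7 CPM and was highest in YFPpos SGC0946, where Ncr1 and Klra8 were at 0. The T cell list summed to 5342 to 5572 CPM in naive and 3080 to 3797 in cultured cells. Ifng, the reported gene, read 25.4 to 114 CPM in YFPneg libraries and 611 to 929 CPM in YFPpos SGC0649. Of all reads, 7.40% to 8.66% were unmapped in naive libraries, 3.14% to 4.62% in YFPneg libraries and 6.44% to 8.35% in YFPpos libraries, apart from YFPpos SGC0946 replicate 2 at 3.61%. That library also stands apart among the ribosomal protein genes. The main counts of called members in its group's comparisons are given with and without it.

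Ribosomal protein genes have many processed pseudogenes, and the authors counted no read that mapped to several places. Of the 81 members with a coding model in GENCODE M21 (build GRCm38), 78 shared at least one 50-base stretch with a pseudogene, and 29 shared every such stretch with another gene or pseudogene. The 15 members with less than 50% of their stretches shared held 49.2% of the family's counts, and the 29 fully shared ones held 5.38%. Across the 81 members the mean count fell with the shared percentage (Spearman rho -0.62, across genes, which are not independent). A member's level therefore cannot be read as its full mRNA level. Multi-mapping reads were 21.5% to 22.2% of reads in naive and YFPneg libraries and 24.0% to 25.7% in YFPpos libraries; their part in the results was not tested.

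Together the family took 2.85%, 2.78% and 2.92% of all counts in naive cells. The shares were 2.17% and 2.36% in YFPneg SGC0649, and 2.24%, 2.44% and 2.19% in YFPneg SGC0946. They were 2.69%, 2.69% and 2.65% in YFPpos SGC0649, and 2.69%, 2.60% and 2.81% in YFPpos SGC0946. All 5 YFPneg libraries lay below every other library, and of the YFPpos libraries only SGC0946 replicate 3 reached the naive range. Within the family, members with a coding sequence of at most 400 bases gave 42.4 to 43.6 counts per 100 counts of members above 600 bases in naive cells. The value was 26.3 to 27.8 in YFPneg cells and 37.9 to 41.0 in YFPpos cells, except for 32.5 in YFPpos SGC0946 replicate 2.

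**Figure D1:**
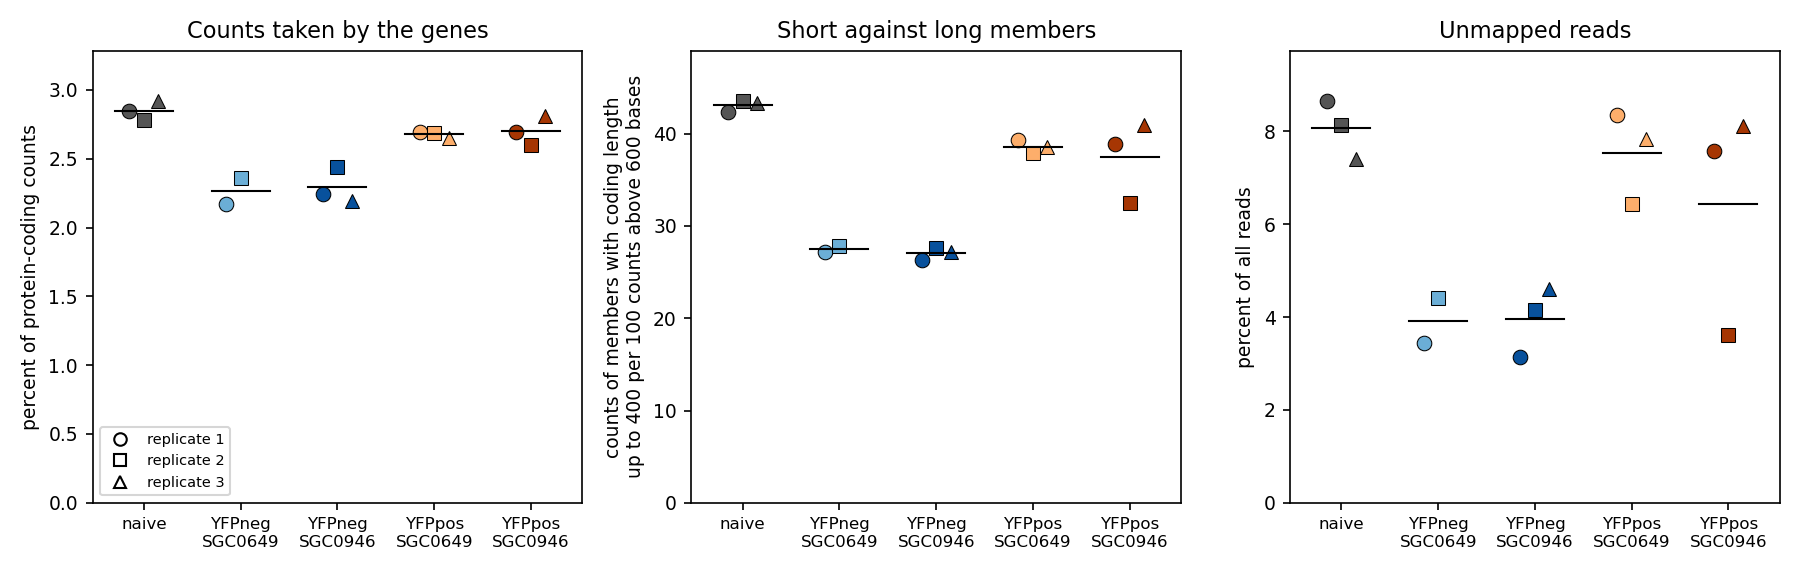
Share of protein-coding counts taken by the 82 ribosomal protein genes (percent, left), counts of short members per 100 counts of long members (middle) and unmapped reads (percent of all reads, right) in each of 14 libraries, with points for libraries and a line for each group's mean. YFPneg libraries take 2.17% to 2.44% of counts, and YFPpos SGC0946 replicate 2 sits low in the middle panel at 32.5 and in the right panel at 3.61%.

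Mean naive levels of the tested members ran from 0.214 to 2344 CPM with a median of 144, and 46 members exceeded 100. Per kilobase of coding sequence, the highest naive levels were those of Rplp1, a stalk protein, at 4053 CPM, Rpl41, the smallest protein of the ribosome, at 3989, and Rpl13a, also known from the GAIT complex that silences inflammatory mRNAs, at 3081. The lowest were Rpl23a at 10.7, Rpl24 at 10.6 and Rpl39l at 1.40. All coding stretches of Rpl23a and Rpl24 are shared with other sequences, so their low values describe what could be counted. None of Rpl39l's stretches is shared. All coding stretches of Rpl41 are shared too, and only 75 of the 544 bases of its transcript are coding. Its high place therefore depends on dividing by coding length.

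Against naive cells, more of the family fell than rose in all 4 groups of cultured cells. In YFPpos SGC0649, 16 of 80 members rose and 34 fell, where 79.8% of all genes passed the test, 42.6% higher and 37.3% lower. In YFPneg SGC0649, 7 rose and 52 fell, against 69% of all genes, 36.4% higher and 32.6% lower. In YFPpos SGC0946, 14 rose and 40 fell, against 80.7% (42.2% higher, 38.5% lower), and in YFPneg SGC0946, 11 rose and 54 fell, against 72.9% (38.6% higher, 34.3% lower). The members' median log2 fold changes were -0.09, -0.45, -0.18 and -0.40 in that order, beside medians over all genes of 0.09, 0.03, 0.05 and 0.05. These 4 comparisons share the naive libraries. Without YFPpos SGC0946 replicate 2, 16 members rose and 34 fell in that group, against 41.2% of all genes higher and 37.1% lower. The test was edgeR's quasi-likelihood F test with Benjamini-Hochberg adjustment over all genes. Scaling to the family's own total holds its sum equal in all libraries, so it compares members with one another and carries no direction for the family. With it the counts were 31 higher and 24 lower in YFPpos SGC0649, 26 and 27 in YFPneg SGC0649, 24 and 27 in YFPpos SGC0946, and 26 and 28 in YFPneg SGC0946, with the median of all genes raised by 0.16 to 0.40. With library totals the counts were 22 and 30, 9 and 47, 21 and 32, and 11 and 52 in that order. An offset for coding length, described below and added after the data were seen, gave 5 higher and 54 lower, 4 and 59, 7 and 57, and 5 and 58. Shares of all genes called with these other scalings and the offset are not given here, so those counts cannot be set against other genes.

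Of the 80 members, 31 fell in all 4 cultured groups and 5 rose in all 4, namely Rps27l, Rpl29, Rpl27, Rpl3 and Rps2. Another 23 fell in at least 1 group and rose in none, 13 rose in at least 1 and fell in none, Rplp0 and Rpl36al did both, and 6 passed in no group, namely Rps6, Rpl6l, Rpl14, Rps23, Rpl39l and Rpl36. All of these patterns rest on the same naive libraries and were not counted over all genes, so they have no background beside them. By subunit, 12 large subunit genes rose and 15 fell of 46 in YFPpos SGC0649, against 4 and 17 of 31 small subunit genes. In YFPneg SGC0649 the counts were 4 and 25 for the large and 3 and 24 for the small subunit. A test of the difference between subunits was not made.

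**Figure D2:**
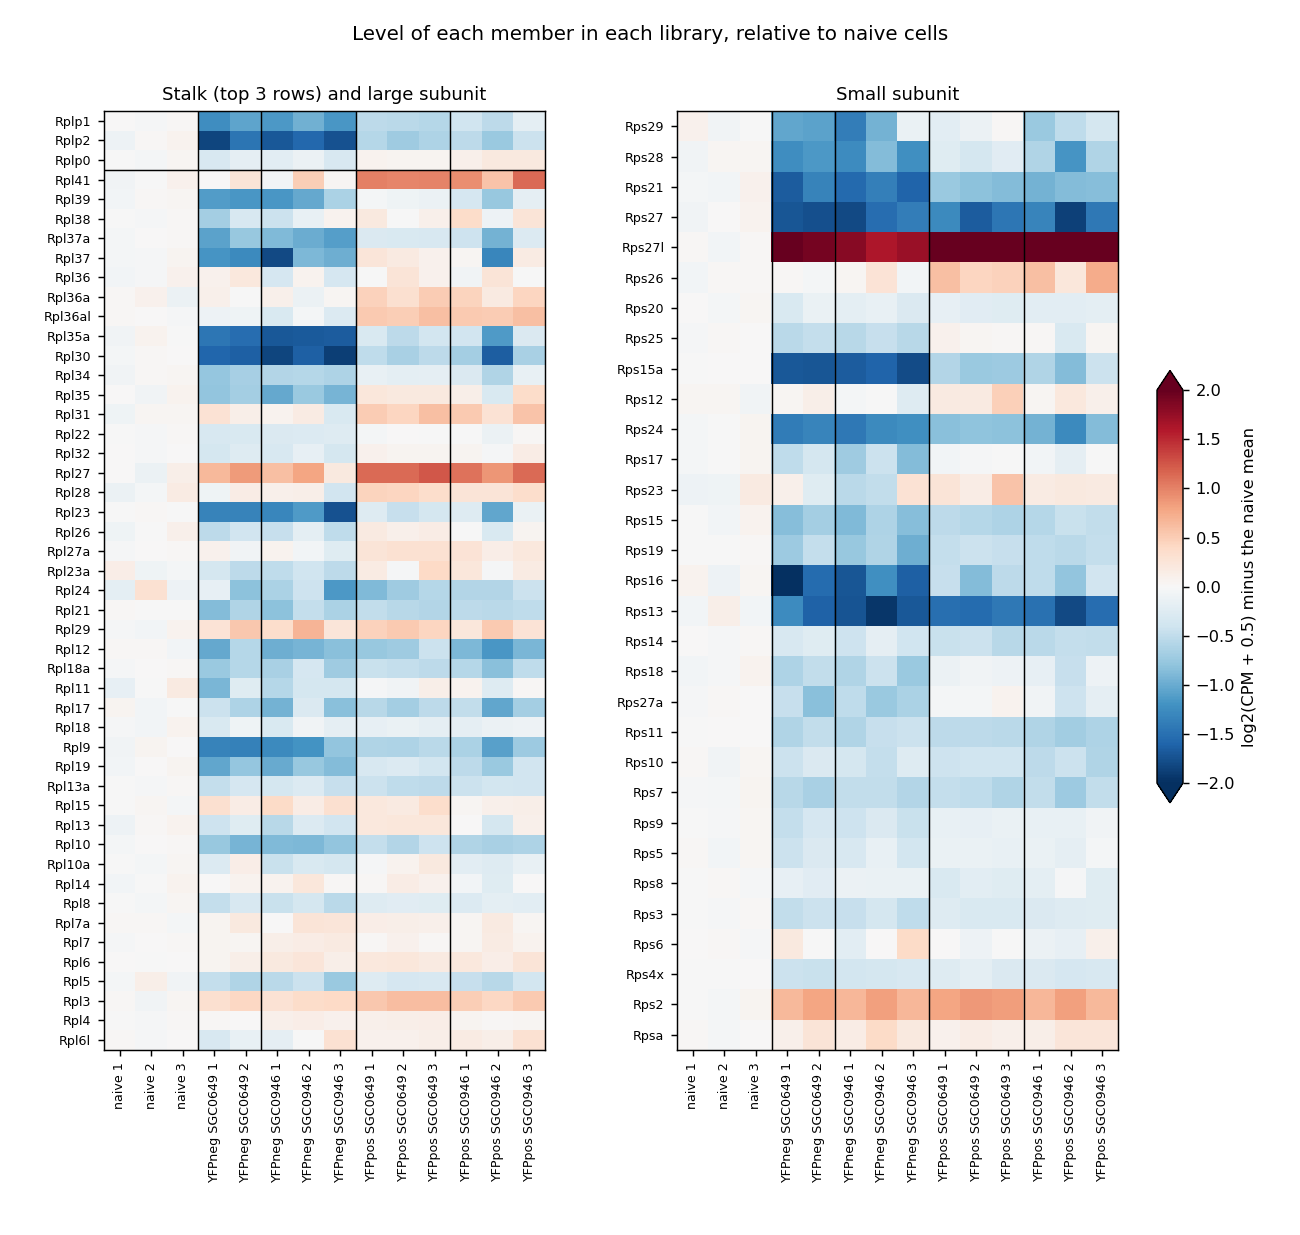
Level of 79 tested members in each library as log2(CPM + 0.5) minus the mean of the naive libraries, with blue for lower and red for higher, columns for libraries and rows ordered by coding length from short (top) to long within the stalk, large subunit and small subunit. Rpl39l is left out for its low counts, and Rpl6l, which has no coding model, is the last row of the large subunit. YFPneg columns are darkest among short members, Rps27l is the one strongly red row, and YFPpos SGC0946 replicate 2 is bluer than its neighbours for Rpl37, Rpl30 and Rpl35a.

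The stalk genes encode the acidic proteins that draw elongation factors to the ribosome, and they did not move as a unit. Rplp1 stood at 1386, 1359.7 and 1412 CPM in naive cells, 583 and 665 in YFPneg SGC0649, 628, 712 and 620.2 in YFPneg SGC0946, 968, 954 and 931 in YFPpos SGC0649 and 1051, 968 and 1208 in YFPpos SGC0946. Rplp2 stood at 438, 478 and 495 CPM in naive cells, 131 and 170.3 in YFPneg SGC0649, 144, 158 and 139.8 in YFPneg SGC0946, 317, 286 and 307 in YFPpos SGC0649 and 327, 281 and 350.4 in YFPpos SGC0946. For both, naive libraries were highest, YFPneg lowest and YFPpos between, with no overlap between the 3 kinds of cell. Rplp2 fell by 1.64 on the log2 scale in YFPneg SGC0649 (SE 0.11, adjusted p = 5.0e-10) and changed by -0.63 (SE 0.09, adjusted p = 6.3e-06) in YFPpos SGC0649. Rplp1 changed by -1.15 and -0.54 in the same comparisons. Rplp0, which anchors the P1 and P2 proteins to the ribosome, read 1905, 1875 and 1982 CPM in naive cells, 1535 and 1702 in YFPneg SGC0649, 1654, 1769 and 1545 in YFPneg SGC0946, 2007, 1998 and 2001 in YFPpos SGC0649 and 2049.8, 2193 and 2202 in YFPpos SGC0946. Its naive libraries lay between the YFPneg and the YFPpos libraries: the change was -0.25 (adjusted p = 0.0026) in YFPneg SGC0649, -0.21 (adjusted p = 0.003) in YFPneg SGC0946 and 0.16 (adjusted p = 0.016) in YFPpos SGC0946, and the falls turned to 0.15 each when the counts were scaled to the family. The YFPpos SGC0946 call was lost without naive replicate 2, without YFPpos SGC0946 replicate 3 or after an offset for coding length, and the YFPneg SGC0649 call was also lost without replicate 1 of that group.

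Among large subunit genes, Rpl27 and Rpl41 rose most in YFPpos cells. Rpl27 read 15.4, 14.02 and 16.6 CPM in naive cells, 24.4 and 28.0 in YFPneg SGC0649, 23.3, 26.9 and 17.5 in YFPneg SGC0946, 34.2, 34.2 and 37.0 in YFPpos SGC0649 and 33.0, 28.8 and 34.0 in YFPpos SGC0946, and every cultured library exceeded every naive one. Its log2 fold change was 1.20 (SE 0.13, adjusted p = 2.2e-07) in YFPpos SGC0649 and 0.77 (SE 0.15, adjusted p = 1.7e-04) in YFPneg SGC0649. Rpl41 read 285, 296 and 316 CPM in naive cells, 300.3 and 359 in YFPneg SGC0649, 287, 419.7 and 308 in YFPneg SGC0946, 602, 590.3 and 593 in YFPpos SGC0649 and 569, 442 and 653 in YFPpos SGC0946. All 6 YFPpos libraries lay above all others, with a log2 fold change of 0.99 (SE 0.13, adjusted p = 2.2e-06) in YFPpos SGC0649 and 0.89 (SE 0.13, adjusted p = 7.7e-06) in YFPpos SGC0946, while the YFPneg groups gave 0.14 (adjusted p = 0.41) and 0.18 (adjusted p = 0.24). Rpl3, which sits at the peptidyl transferase centre, read 136 to 145 CPM in naive and 174 to 217 in cultured libraries, with a log2 fold change of 0.59 (SE 0.06, adjusted p = 2.8e-08) in YFPpos SGC0649. Rpl29 was higher by 0.41 (SE 0.11, adjusted p = 0.0039) in YFPneg SGC0649, a call lost without replicate 2 of that group or after the offset for coding length described below.

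The deepest falls among large subunit genes were in YFPneg cells. Rpl30 read 154, 161 and 159 CPM in naive cells, 52.3 and 50.6 in YFPneg SGC0649, 43.9, 50.5 and 42.4 in YFPneg SGC0946, 111, 101 and 110.1 in YFPpos SGC0649 and 98.6, 50.1 and 100.5 in YFPpos SGC0946. Rpl35a, a gene mutated in Diamond-Blackfan anaemia, read 72.6, 79.4 and 75.8 CPM in naive cells, 27.7 and 26.1 in YFPneg SGC0649, 23.2, 23.4 and 23.7 in YFPneg SGC0946, 61.5, 52.6 and 59.0 in YFPpos SGC0649 and 57.8, 34.2 and 62.0 in YFPpos SGC0946. In both genes YFPpos SGC0946 replicate 2 lay far below the other replicates of its group and nearer to YFPneg libraries. Rpl30 changed by -1.62 (SE 0.20, adjusted p = 1.5e-06) in YFPneg SGC0649 and -1.79 (SE 0.18, adjusted p = 7.5e-08) in YFPneg SGC0946, and Rpl35a by -1.50 (SE 0.18, adjusted p = 8.4e-07) and -1.70 (SE 0.16, adjusted p = 3.5e-08). Rpl12, at the base of the stalk, changed by -0.99 (SE 0.11, adjusted p = 2.1e-07) in YFPpos SGC0946 and -0.63 in YFPpos SGC0649. Rpl24 fell by 0.83 on the log2 scale in YFPpos SGC0649 (adjusted p = 0.011), on only 4.26 to 6.17 CPM in naive and 2.43 to 3.16 in YFPpos SGC0649 libraries, and the call was lost without naive replicate 2.

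Rpl5 and Rpl11 carry 5S ribosomal RNA, and with Rpl23 they can bind Mdm2, the ubiquitin ligase of p53. The 3 genes changed by different amounts. Rpl5 fell in all 4 groups, with log2 fold changes of -0.32 (adjusted p = 0.0041) in YFPpos SGC0649 and -0.55 (adjusted p = 1.4e-04) in YFPneg SGC0649, and both calls were lost with scaling to the family. Rpl23 read 199.9, 206 and 200.4 CPM in naive cells, 79.7 and 79.4 in YFPneg SGC0649, 81.6, 91.4 and 59.97 in YFPneg SGC0946, 168, 146 and 159 in YFPpos SGC0649 and 168, 98.5 and 184 in YFPpos SGC0946. YFPneg libraries were lowest for Rpl23, at -1.35 (adjusted p = 1.1e-05) with SGC0649, while YFPpos SGC0649 gave -0.36 (adjusted p = 0.058); the fall in YFPpos SGC0946, -0.43 (adjusted p = 0.026), was lost without that group's replicate 2, without naive replicate 2, with library totals, with scaling to the family and with DESeq2. Rpl11 gave -0.56 (adjusted p = 0.0095) in YFPneg SGC0649, lost without replicate 1 of that group or with scaling to the family, and 0.00 (adjusted p = 0.98) in YFPpos SGC0649.

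Other large subunit genes with known roles beyond the ribosome's core showed smaller differences. Rpl13a fell, with a log2 fold change of -0.49 (adjusted p = 3.6e-07) in YFPpos SGC0649 and -0.40 (adjusted p = 2.2e-05) in YFPneg SGC0649; scaled to the family the call was lost in YFPneg SGC0649, at -0.01, and in YFPneg SGC0946, at 0.00367. Rpl10a, of the L1 stalk, gave 0.08 (adjusted p = 0.38) in YFPpos SGC0649 and -0.37 (adjusted p = 0.0011) in YFPneg SGC0946, the latter lost with scaling to the family. Rpl38, mutated in the tail-short mouse, read 8.78 to 9.07 CPM in naive cells and -0.52 (adjusted p = 0.031) relative to them in YFPneg SGC0649, a call that 8 of 15 alternatives ended. Rpl22, which has a role in T cell development outside the ribosome, read 417 to 429 CPM in naive libraries, 338 to 355 in the YFPneg libraries and 389.8 to 430.4 in the YFPpos libraries. It fell, with a log2 fold change of -0.31 (adjusted p = 8.1e-05) in YFPneg SGC0649, which reversed to 0.09 with scaling to the family, and was at -0.02 (adjusted p = 0.75) in YFPpos SGC0649. Its near relative Rpl22l1 held 16.9 to 26.0 counts per 100 counts of Rpl22 over all libraries.

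In the small subunit, Rps2 and Rps27l rose most and Rps13 and Rps27 fell most in YFPpos cells. Rps2, at the entry of the mRNA channel, read 358, 349 and 371 CPM in naive cells, 561 and 624 in YFPneg SGC0649, 567, 636 and 569 in YFPneg SGC0946, 624, 654 and 645 in YFPpos SGC0649 and 569, 632 and 563 in YFPpos SGC0946. No cultured library overlapped naive cells, and the log2 fold change was 0.83 (SE 0.06, adjusted p = 1.3e-09) in YFPpos SGC0649 and 0.72 (SE 0.07, adjusted p = 6.2e-08) in YFPneg SGC0649. Rps13 read 41.6, 46.9 and 41.8 CPM in naive cells, 17.8 and 13.9 in YFPneg SGC0649, 12.8, 10.9 and 13.1 in YFPneg SGC0946, 14.97, 14.6 and 15.8 in YFPpos SGC0649 and 15.03, 12.04 and 14.8 in YFPpos SGC0946. All cultured libraries were below the naive ones, with log2 fold changes of -1.52 (SE 0.12, adjusted p = 2.9e-09) in YFPpos SGC0649 and -1.45 (SE 0.14, adjusted p = 6.5e-08) in YFPneg SGC0649. Rps24, another Diamond-Blackfan anaemia gene, changed by -0.82 (adjusted p = 5.5e-08) and -1.36 (adjusted p = 9.0e-10).

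A second set of small subunit genes was low mainly in YFPneg cells. Rps15a read 683, 689 and 694 CPM in naive cells, 212 and 211 in YFPneg SGC0649, 217, 227 and 199 in YFPneg SGC0946, 456, 411 and 414 in YFPpos SGC0649 and 456, 379 and 509.7 in YFPpos SGC0946. Rps16 read 49.4, 43.8 and 48.2 CPM in naive cells, 11.2 and 15.9 in YFPneg SGC0649, 14.05, 19.8 and 14.8 in YFPneg SGC0946, 33.9, 25.6 and 32.4 in YFPpos SGC0649 and 32.9, 27.1 and 36.0 in YFPpos SGC0946. Their YFPneg libraries lay below all others. Rps15a changed by -1.70 (SE 0.10, adjusted p = 7.6e-11) in YFPneg SGC0649 and -0.69 (SE 0.08, adjusted p = 6.4e-07) in YFPpos SGC0649, and Rps16 by -1.80 (SE 0.18, adjusted p = 1.3e-07) and -0.62 (SE 0.15, adjusted p = 0.0011).

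Of the small subunit genes with known further roles, Rps3 and Rps19 fell in all 4 cultured groups. Rps6, the substrate of S6 kinase downstream of mTORC1, read 21.0 to 21.9 CPM in naive and 18.4 to 28.2 in cultured cells and passed in none of the naive comparisons; its coding stretches are all shared with pseudogenes. Rps3, at the mRNA entry site, fell, with a log2 fold change of -0.29 (adjusted p = 3.6e-05) in YFPpos SGC0649 and -0.47 (adjusted p = 9.8e-07) in YFPneg SGC0649, the latter lost with scaling to the family. Rps19, the most often mutated gene of Diamond-Blackfan anaemia, changed by -0.45 (adjusted p = 4.2e-05) and -0.60 (adjusted p = 1.2e-05). Rps27a, made as a fusion with ubiquitin, gave 0.00 (adjusted p = 0.98) in YFPpos SGC0649 and -0.65 (adjusted p = 2.2e-04) in YFPneg SGC0649, lost with scaling to the family. Rpsa, also known as the laminin receptor, gave 0.11 (adjusted p = 0.13) in YFPpos SGC0649 and 0.24 (adjusted p = 0.0027) in YFPneg SGC0946, lost after an offset for coding length.

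Rps27l had the largest rise of all members in each of the 4 comparisons with naive cells. It is a near copy of Rps27 known as a p53 target, and lies at chr9:66946086-66949516, plus strand; Rps27 lies at chr3:90212522-90213651, minus strand (GRCm38, GENCODE M21). Rps27l read 22.8, 21.7 and 23.0 CPM in naive cells, 91.0 and 85.9 in YFPneg SGC0649, 80.4, 70.0 and 75.7 in YFPneg SGC0946, 158, 171 and 189 in YFPpos SGC0649 and 134, 123 and 145 in YFPpos SGC0946. Its level was lowest in naive, higher in YFPneg and highest in YFPpos cells, with no overlap between these kinds of cell, and the SGC0946 libraries lay below the SGC0649 libraries of the same sort. The log2 fold change against naive cells was 2.94 (SE 0.09, adjusted p = 3.4e-15) in YFPpos SGC0649, or 7.67-fold, 1.98 (SE 0.09, adjusted p = 4.0e-12) in YFPneg SGC0649, 2.57 in YFPpos SGC0946 and 1.74 in YFPneg SGC0946. It kept its call in all 16 alternatives of the first comparison, between 2.50 and 3.10.

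Rps27 went the other way, with 16.2, 17.3 and 18.03 CPM in naive cells, 4.88 and 4.73 in YFPneg SGC0649, 4.54, 5.62 and 6.28 in YFPneg SGC0946, 6.81, 5.07 and 5.97 in YFPpos SGC0649 and 6.53, 4.33 and 6.08 in YFPpos SGC0946. Every cultured library was below every naive one, with log2 fold changes of -1.53 (SE 0.18, adjusted p = 4.8e-07) in YFPpos SGC0649 and -1.84 (SE 0.21, adjusted p = 6.7e-07) in YFPneg SGC0649. Naive libraries held 126 to 140 counts of Rps27l per 100 of Rps27, and cultured libraries 1207 to 3380. Rps27 held 271 to 318 counts in naive libraries. Its coding sequence is the same at all 252 bases as that of Rps27rt, which lies outside the naming rule and held 10116 to 11396 counts there. Rps27rt read 640.2, 630.2 and 646 CPM in naive cells, 344 and 351 in YFPneg SGC0649, 325, 340.2 and 349 in YFPneg SGC0946, 190.1, 204 and 185 in YFPpos SGC0649 and 189, 256 and 180.0 in YFPpos SGC0946. It also was highest in naive cells, at -1.73 (SE 0.10, adjusted p = 2.1e-11) in YFPpos SGC0649, so Rps27 and its identical copy both fell. Reads of the coding sequence cannot be told apart between these 2 genes.

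The coding sequences of Rps27 and Rps27l are shown because these near copies moved in opposite directions. They have the same length, 252 bases, and differ at 60 of them (76.2% identity), of which 53 are at the third codon position. They share no 50-base stretch. Sequences are from GENCODE M21, 5′ to 3′, with the bases that differ in capitals.
Rps27: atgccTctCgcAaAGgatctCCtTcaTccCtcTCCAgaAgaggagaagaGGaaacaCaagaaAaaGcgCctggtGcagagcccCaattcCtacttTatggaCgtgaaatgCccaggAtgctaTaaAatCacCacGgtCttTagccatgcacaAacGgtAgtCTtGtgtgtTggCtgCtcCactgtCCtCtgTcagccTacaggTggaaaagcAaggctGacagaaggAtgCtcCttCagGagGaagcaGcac
Rps27l: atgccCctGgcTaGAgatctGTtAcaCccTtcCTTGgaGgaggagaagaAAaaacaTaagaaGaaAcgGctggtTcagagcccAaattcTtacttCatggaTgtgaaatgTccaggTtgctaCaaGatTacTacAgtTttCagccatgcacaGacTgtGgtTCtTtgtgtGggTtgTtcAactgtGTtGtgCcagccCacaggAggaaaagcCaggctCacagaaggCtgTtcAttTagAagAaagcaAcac

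**Figure D3:**
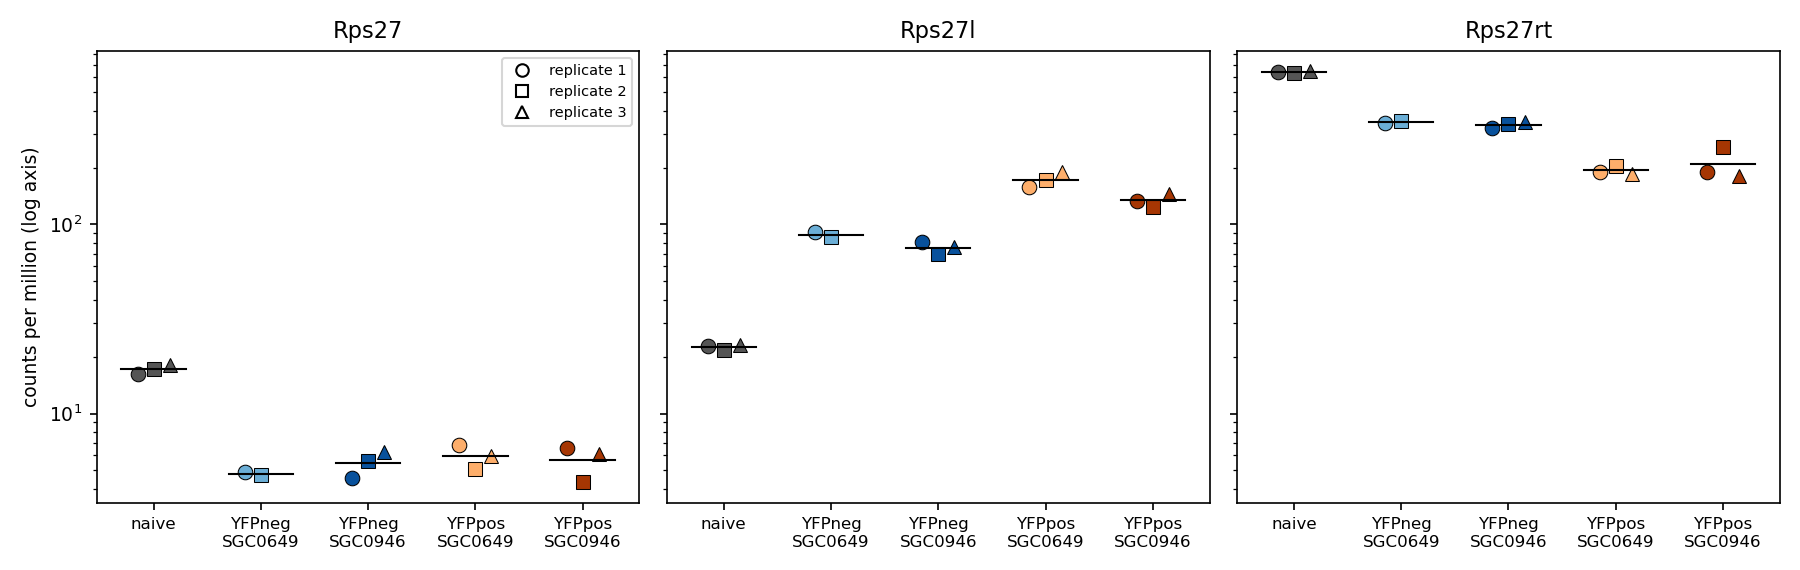
Level of Rps27, Rps27l and Rps27rt in each library in CPM on a log axis, with points for libraries and lines for group means. Rps27l goes from 21.7 to 23.0 in naive libraries to 123 to 189 in YFPpos libraries, while Rps27 and Rps27rt are highest in the naive libraries.

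Of the other near copies, Rpl3l and Rpl10l were all but uncounted and Rpl39l nearly so, while Rpl36a and Rpl36al both rose in YFPpos cells. Rpl39 lines the exit tunnel of the large subunit, and Rpl39l is its copy known from testis; Rpl39 read 176, 185 and 188 CPM in naive cells, 84.1 and 81.3 in YFPneg SGC0649, 81.7, 90.2 and 118 in YFPneg SGC0946, 178, 173 and 168 in YFPpos SGC0649 and 145, 108 and 162 in YFPpos SGC0946. YFPneg SGC0946 replicate 3 lay above YFPpos SGC0946 replicate 2, and the other YFPneg libraries lay below all others. Rpl39 fell in YFPneg SGC0649, with a log2 fold change of -1.15 (SE 0.15, adjusted p = 2.1e-06), and gave -0.08 (adjusted p = 0.55) in YFPpos SGC0649. Rpl39l held 1 to 15 counts in a library. Rpl36a and Rpl36al, which differ at 39 of 318 coding bases, rose, with log2 fold changes of 0.44 (adjusted p = 0.0024) and 0.54 (adjusted p = 8.2e-07) in YFPpos SGC0649, and both calls were lost after an offset for coding length. Rpl10, which joins the large subunit late in its assembly, fell, with a log2 fold change of -0.85 (adjusted p = 9.1e-08) in YFPneg SGC0649 and -0.49 (adjusted p = 7.6e-06) in YFPpos SGC0649, and Rps4x fell, with a log2 fold change of -0.43 (adjusted p = 7.9e-07) and -0.24 (adjusted p = 9.3e-05), which with scaling to the family came to -0.04 and -0.08 and lost the call. The Rpl39 pair differs at 23 of 153 coding bases (85.0% identity), with no 50-base stretch shared, and is shown with the differing bases in capitals because Rpl39l is read from so few counts.
Rpl39: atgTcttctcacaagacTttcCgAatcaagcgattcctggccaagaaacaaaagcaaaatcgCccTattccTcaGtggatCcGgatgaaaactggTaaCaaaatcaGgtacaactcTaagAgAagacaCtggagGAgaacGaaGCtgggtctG
Rpl39l: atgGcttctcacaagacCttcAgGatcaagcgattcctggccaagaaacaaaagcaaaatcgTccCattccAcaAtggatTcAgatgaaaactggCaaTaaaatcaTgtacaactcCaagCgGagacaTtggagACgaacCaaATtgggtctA

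Several other lists of translation genes mostly rose against naive cells. Over all genes 42.6% rose and 37.3% fell in YFPpos SGC0649. In YFPpos SGC0649, 67 of 76 mitochondrial ribosomal protein genes rose and 2 fell, 25 of 29 ribosome biogenesis genes rose and 0 fell, and 29 of 34 initiation factor genes rose and 4 fell. Among them Eif5a, an elongation and termination factor carrying hypusine, changed by 2.53 (adjusted p = 3.4e-16), Nhp2 of the H/ACA ribonucleoprotein by 2.29 (adjusted p = 5.5e-12) and Myc by 1.92 (adjusted p = 2.5e-14). In YFPneg SGC0649, 56 of the 76 mitochondrial genes rose and 5 fell, and 20 of the 29 biogenesis genes rose and 1 fell. Of 15 translation factors and other genes listed as known TOP genes, 10 rose and 3 fell in YFPpos SGC0649; among those that fell was Tpt1, a growth-related protein, at -1.20 (adjusted p = 1.5e-09). Of 20 genes of mTORC1 and TOP control, 7 rose and 8 fell, with Larp1, which binds TOP tracts, at 1.60 (adjusted p = 8.3e-15) and Sesn1, an inhibitor of mTORC1, at -3.14 (adjusted p = 1.5e-15). In YFPpos SGC0649 the cytosolic family's median was -0.09, and that of the mTORC1 and TOP control list was also -0.09. The mitochondrial, biogenesis and initiation factor lists had medians of 0.83, 0.96 and 0.84. Of 11 ribosome quality control genes, 5 rose and 3 fell.

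YFPpos cells had higher levels of the family than YFPneg cells with either compound. With SGC0649, 46 of 80 members were higher and 1 lower, where 45.2% of all genes passed, 23.9% higher and 21.3% lower. With SGC0946, 43 were higher and 5 lower, against 54.7% of all genes, 26.9% higher and 27.8% lower. These are separate libraries, and 39 members were higher in both, of 46 and of 43. The overlap between the sorts was not counted over all genes. Medians were 0.31 and 0.26, beside 0.04 and 0.01 over all genes. Scaled to the family's own total, which lowers the median of all genes by 0.20 and 0.18, the counts were 27 higher and 11 lower with SGC0649 and 21 and 19 with SGC0946; this scaling holds the family's sum equal and compares members with one another.

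All 3 stalk genes were higher in YFPpos cells, Rplp2 by 1.01 (SE 0.11, adjusted p = 1.1e-06) with SGC0649 and 1.12 (SE 0.09, adjusted p = 3.7e-08) with SGC0946, Rplp1 by 0.61 and 0.72 and Rplp0 by 0.31, a call lost with scaling to the family, and 0.38. Of the large subunit, 27 of 46 were higher with SGC0649 and 24 with SGC0946, and of the small subunit 16 of 31 with each. Rpl37, a zinc finger protein of the large subunit, read 55.4, 55.9 and 59.1 CPM in naive cells, 24.8 and 23.3 in YFPneg SGC0649, 15.9, 30.1 and 28.7 in YFPneg SGC0946, 67.2, 64.1 and 60.2 in YFPpos SGC0649 and 58.4, 22.7 and 64.0 in YFPpos SGC0946. The 3 YFPpos SGC0649 libraries and 2 of the YFPpos SGC0946 libraries were above all YFPneg ones, and YFPpos SGC0946 replicate 2 lay among them. Rpl37 differed by 1.41 (SE 0.31, adjusted p = 0.0015) with SGC0649 and 0.97 (SE 0.27, adjusted p = 0.0067) with SGC0946. Rps16 differed by 1.18 (SE 0.18, adjusted p = 5.9e-05) and 0.98 (SE 0.16, adjusted p = 5.3e-05), Rpl35a by 1.10 (SE 0.17, adjusted p = 8.0e-05) and 1.13 (SE 0.16, adjusted p = 1.1e-05), and Rps15a by 1.01 and 1.06. Rpl35 read 29.7 to 38.0 CPM in YFPneg and 49.4 to 78.5 in YFPpos libraries, 0.99 (adjusted p = 5.0e-06) with SGC0946.

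The widest difference in the sort with SGC0649 was that of Rpl39l, 2.51 (SE 0.96, adjusted p = 0.042), on at most 15 counts, and 11 of 14 alternatives ended its call. Rps27l was higher in YFPpos cells by 0.96 (SE 0.09, adjusted p = 2.1e-07) with SGC0649 and 0.83 (SE 0.08, adjusted p = 1.5e-07) with SGC0946, and Rps27rt was lower, at -0.85 (SE 0.10, adjusted p = 5.9e-06), with SGC0649. Rps14, a gene of the 5q- syndrome, was lower with SGC0649, at -0.20 (adjusted p = 0.026), lost without YFPneg replicate 2 or YFPpos replicate 3. With SGC0946, Rpl14, Rpl15, Rps14 and Rps10 were lower by 0.17 to 0.20 on the log2 scale, and 6, 11, 7 and 11 alternatives of 17 ended those calls. Rpl3 and Rps3 were higher by 0.22 (adjusted p = 0.0083) and 0.18 (adjusted p = 0.016) with SGC0649 and Rps4x by 0.19 (adjusted p = 0.0054); scaled to the family they reversed to -0.02, -0.06 and -0.05. All 3 calls were also lost with a block on the number in the titles and in a fit of only the groups compared, those of Rps3 and Rps4x after the offset for coding length, and those of Rpl3 and Rps3 without YFPneg SGC0649 replicate 1. Without YFPpos SGC0946 replicate 2, 44 members were higher and 2 lower with SGC0946, where 24.4% of all genes were higher and 25.4% lower. Rpl37 then differed by 1.31 (SE 0.17, adjusted p = 1.1e-05).

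The difference between the sorted cells went with the length of the coding sequence. Among members of at most 400 bases, 23 of 28 were higher in YFPpos cells with SGC0649, with a median of 0.63; among those above 400 and up to 600 bases 15 of 30 were, with a median of 0.27; and above 600 bases 7 of 21 were, with a median of 0.12. With SGC0946 the medians were 0.48, 0.27 and 0.01. Spearman's rho with length was -0.63 and -0.65 over 79 genes, which share their libraries. Without YFPpos SGC0946 replicate 2, the SGC0946 medians were 0.60 up to 400 bases and 0.04 above 600, and rho was -0.67. Other genes of the same lengths had medians of 0.26, 0.21 and 0.01 with SGC0649, and 39%, 35.1% and 21.7% of them were higher. The members' shares were 82.1%, 50% and 33.3%. Among genes above 50 CPM the short members' median was 0.68 and that of 165 other short genes 0.33. An offset for each library fitted on other genes by coding length, added after the data were seen, left 31 members higher and 6 lower with SGC0649, and 27 and 8 with SGC0946. Shares of all genes called with that offset are not given here, so these counts cannot be set against other genes. Short members were also the ones shifted in YFPpos SGC0946 replicate 2, the library with few unmapped reads. Among SGC0649 libraries every YFPneg share of unmapped reads lay below every YFPpos share, so sort and unmapped share cannot be told apart there. Among SGC0946 libraries YFPpos replicate 2, at 3.61%, lay within the YFPneg range. Against naive cells, rho with length was 0.36 in YFPneg SGC0649 and -0.02 in YFPpos SGC0649.

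**Figure D4:**
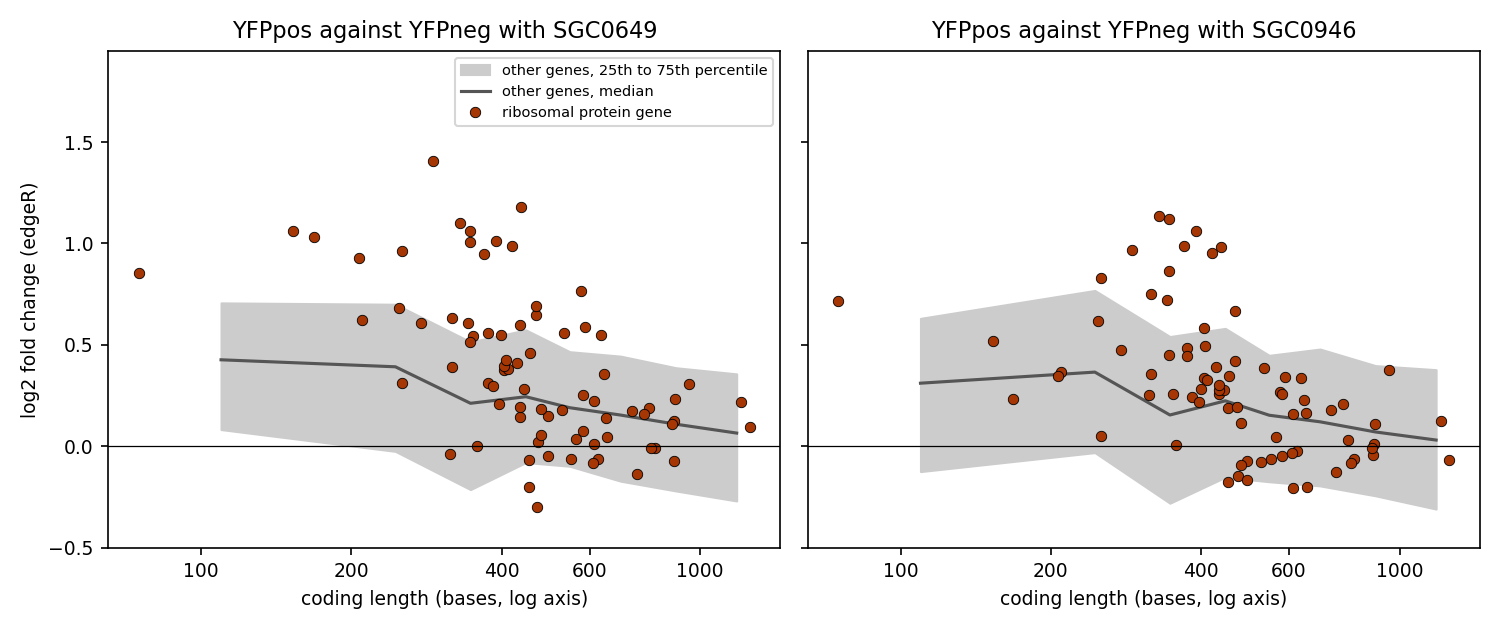
Log2 fold change of YFPpos against YFPneg cells (edgeR) by coding length in bases on a log axis, with SGC0649 (left) and SGC0946 (right); points are ribosomal protein genes without Rpl39l, the line is the median of other genes in bins of length and the band their 25th to 75th percentile. Short members lie highest, with medians of 0.63 and 0.48 at up to 400 bases, and members above 600 bases lie near 0.

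Start sites were examined because the TOP tract is a known feature of these mRNAs. RefSeq windows of the GRCm38.p6 build, matched by symbol, held 61 of the 82 members. A tract was taken as a run of at least 5 pyrimidines, C or T, that starts with C between 3 bases before and 4 after an annotated start, with a gene counted if any of its starts had one. It was found in 24 of 61 members (39.3%), in 13.5% of 26964 other genes and in 9 of 69 mitochondrial ribosomal protein genes (13.0%). A tract that starts elsewhere than the annotated start would be missed. Of the members with a tract, in YFPpos SGC0649 against naive cells 5 of 24 rose and 11 fell, against 9 and 13 of 35 tested members without. In YFPneg SGC0649, 2 of 24 with a tract rose and 15 fell, against 3 and 22 of 35 without. In the sort with SGC0649, 13 of 24 with and 23 of 35 without a tract were higher. The windows below run from 10 bases before to 20 after the start, 5′ to 3′ on the gene's strand with the tract in capitals, for the Rps27 pair, for 3 members with a tract that fell in YFPneg cells and for Rps6. Rps16, Rpl23, Rpl39 and Rps13, which also fell there, have no tract by this definition and are not shown.
Rps27 chr3:90213629-90213658 (minus strand): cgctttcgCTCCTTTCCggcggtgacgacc
Rps27l chr9:66946076-66946105 (plus strand): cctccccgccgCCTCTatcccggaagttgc
Rplp2 chr7:141447641-141447670 (plus strand): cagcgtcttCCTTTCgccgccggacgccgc
Rps15a chr7:118116128-118116157 (minus strand): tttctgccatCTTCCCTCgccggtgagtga
Rpl35a chr16:33056472-33056501 (plus strand): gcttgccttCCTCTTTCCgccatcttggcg
Rps6 chr4:86857348-86857377 (minus strand): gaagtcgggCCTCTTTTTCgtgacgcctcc
Rpl35a has 3 annotated starts, and the window with a tract is shown. Rps27, Rplp2, Rps15a, Rpl35a and Rps6 each hold a tract in this window, and so does Rps27l, although Rps27l rose where Rps27, Rplp2 and Rps15a fell and Rps6 passed no test.

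SGC0946 changed few members relative to SGC0649. In YFPpos cells 0 of 80 rose and 5 fell, where 27.7% of all genes passed the test, 12.1% higher and 15.7% lower; 12 members had an unadjusted p under 0.05, and the median was -0.08 beside -0.04 over all genes. Rps27l, read above, fell from 158, 171 and 189 to 134, 123 and 145 CPM, a log2 fold change of -0.37 (SE 0.08, adjusted p = 0.0022), with no overlap. Rps28, a small subunit protein, went from 68.1, 63.4 and 68.8 to 53.2, 35.3 and 53.3 CPM, -0.50 (SE 0.13, adjusted p = 0.0086), with replicate 2 of SGC0946 lowest. Rpl12 went from 60.2, 62.8 and 75.8 to 54.9, 45.3 and 54.4, -0.36 (SE 0.11, adjusted p = 0.02). Rpl13 gave -0.29 (SE 0.10, adjusted p = 0.041), a call that 11 of 16 alternatives ended, and Rpl10a -0.29 (SE 0.08, adjusted p = 0.018). The count changed when single libraries were left out: it was 2 without YFPpos SGC0649 replicate 3, 3 without YFPpos SGC0946 replicate 1, 3 without replicate 2 and 12 without replicate 3. Of these fits, shares of all genes are given here only for the one without YFPpos SGC0946 replicate 2. Without replicate 2, the library that stands apart, Rps27l was at -0.31 (adjusted p = 0.019) and Rps28 at -0.33 (adjusted p = 0.038), Rplp1 was higher by 0.25 (adjusted p = 0.033), and Rpl12, Rpl13 and Rpl10a no longer passed (adjusted p = 0.11, 0.22 and 0.076), where 7.31% of all genes were higher and 8.97% lower. The calls of Rpl12 and Rpl10a were also lost without YFPpos SGC0649 replicate 3, and that of Rpl10a without YFPpos SGC0946 replicate 1.

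In YFPneg cells 0 members rose and 0 fell with edgeR, where 8.63% of all genes passed, 4.99% higher and 3.64% lower; 6 members had an unadjusted p under 0.05, DESeq2 called 2 (1 higher, 1 lower) and limma-voom 0. Rps27l, at 91.0 and 85.9 with SGC0649 and 80.4, 70.0 and 75.7 CPM with SGC0946, gave -0.23 (95% interval -0.42 to -0.05, adjusted p = 0.11). The intervals of 69 of 80 members in YFPneg cells and 73 of 80 in YFPpos cells lay within a 1.5-fold change either way; Rpl24, Rpl30, Rpl37, Rps29 and Rpl39l were outside in both. The effect of SGC0946 did not pass a test of difference between YFPpos and YFPneg cells for any member: 0 rose and 0 fell in the interaction with edgeR, where 1.15% of all genes passed (0.259% higher, 0.891% lower), 9 members had an unadjusted p under 0.05 and the other tools called 0. The interval of that difference lay within 1.5-fold for 63 of 80.

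**Figure D5:**
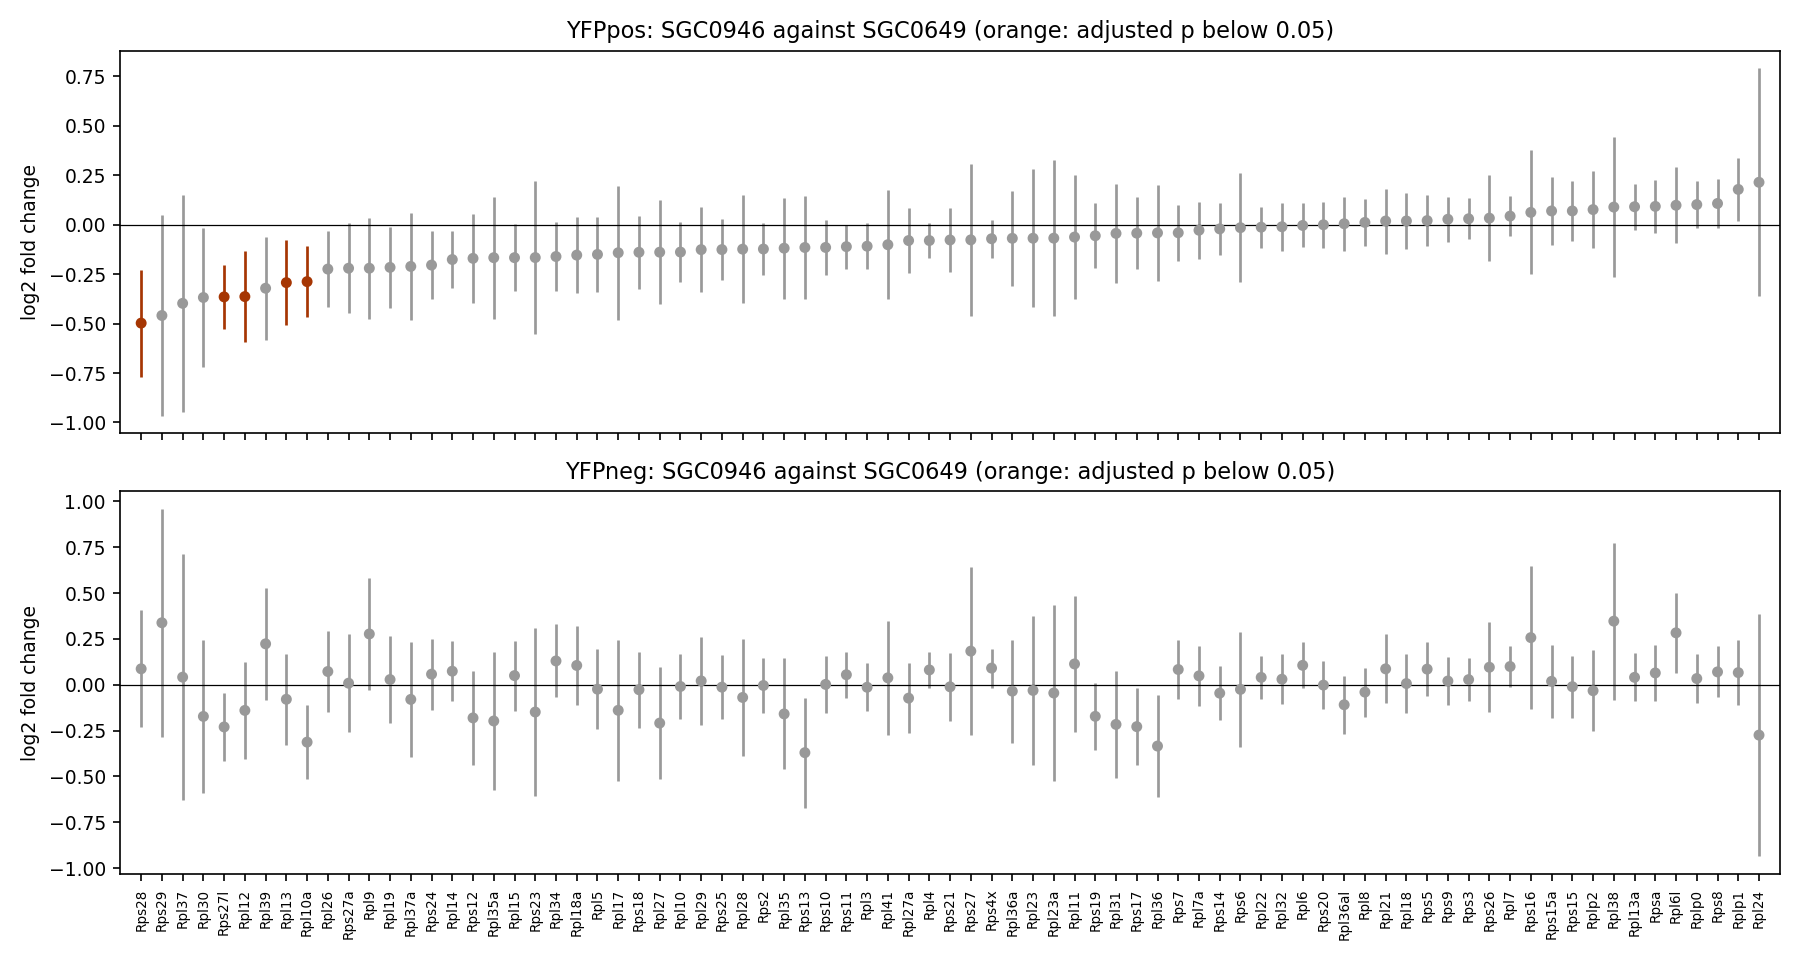
Log2 fold change of SGC0946 against SGC0649 for 79 ribosomal protein genes (Rpl39l left out) in YFPpos (top) and YFPneg cells (bottom), ordered by the value in YFPpos cells, with 95% intervals from the edgeR fit and orange for adjusted p below 0.05. The 5 orange points, from -0.50 for Rps28 to -0.29 for Rpl10a, are all in YFPpos cells, and most intervals in both panels include 0.

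Genes that build or serve the ribosome gave other counts with SGC0946 in the same YFPpos libraries, where 12.1% of all genes rose and 15.7% fell. Of 29 ribosome biogenesis genes, 0 rose and 26 fell, among them Utp20 of the small subunit processome at -0.79 (adjusted p = 2.0e-04), Dkc1, the pseudouridine synthase, at -0.48 (adjusted p = 5.1e-04) and Polr1b of RNA polymerase I at -0.52 (adjusted p = 6.8e-04). Of 76 mitochondrial ribosomal protein genes 0 rose and 26 fell, of 34 initiation factors 0 and 16, and of 8 chaperones and assembly factors 0 and 5, with Heatr3, which helps import Rpl5, at -0.52 (adjusted p = 8.6e-04) and Ltv1 at -0.49 (adjusted p = 0.0022). Among the 15 listed TOP genes outside the family, 3 rose and 1 fell, with Tpt1 at 0.49 (adjusted p = 8.9e-04) and Eef1a1 at 0.21 (adjusted p = 0.017). Larp1 was at -0.22 (adjusted p = 0.0031) and Rheb, the activator of mTORC1, at -0.35 (adjusted p = 0.0024). In YFPneg cells 6 of the 29 biogenesis and 3 of the 76 mitochondrial genes fell and none of them rose. Over all genes 4.99% were higher and 3.64% lower there, so the mitochondrial count is near the share of all genes. Without YFPpos SGC0946 replicate 2, 19 of 29 biogenesis and 11 of 76 mitochondrial genes fell in YFPpos cells. So did 6 of 34 initiation factor and 4 of 8 chaperone genes, again with 0 rises in these lists. Of the 15 listed TOP genes 1 rose and 1 fell. In that fit 7.31% of all genes were higher and 8.97% lower. A test of the difference between these lists and the cytosolic ribosomal protein genes was not made.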

How the data were processed

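The authors deposited raw read counts per protein-coding gene, whole numbers without normalization, for 14 libraries, with a summary of read assignment; per the submitters' processing notes the tools were featureCounts, edgeR and limma on build GRCm38. Counting was on the reverse strand per the file headers. Aligner and annotation release: not given in the sources used here. Counts were filtered with filterByExpr, scaled by TMM and fitted over all 14 libraries with edgeR 4.0.16 in R 4.3.3 (quasi-likelihood F test, Benjamini-Hochberg over 12343 genes, threshold 0.05, 1 coefficient per group, no block). Alternatives were DESeq2 1.42.0, limma 3.58.1 (voom), other scalings and filters, replicate blocks and leaving out each library. Log2 fold changes carry a prior count of 0.125, and intervals are 95%.

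The members and the gene lists were chosen with earlier results of these data known. Named genes were those with a near copy or a known further role, the stalk, the 4 highest and 4 lowest called members per comparison, the 3 highest and lowest per length, and up to 3 of each other list by p; other names were chosen after their values were seen. Coding models and shared 50-base stretches came from GENCODE M21, and start sites from RefSeq. On simulated counts for SGC0946 against SGC0649 in YFPpos cells (12083 genes), 60.8% of genes changed 1.5-fold and 75.8% of those changed 2-fold were recovered. The changed genes were drawn from all tested genes, so these shares are not those of the ribosomal protein genes. Libraries of a group differed by more than sampling noise, so none was counted as a duplicate.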

Additional observations from a re-analysis of the deposited data

How the results depend on the processing

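Counts of called members (edgeR unless said) stayed within 1.5 times of the reported value in every alternative for the comparisons with naive cells, both sorts and the interaction, apart from the following. With SGC0946 against SGC0649 in YFPneg cells (reported 0), library totals gave 1, scaling to the family 1, no filter on low counts 1, DESeq2 2 and the block on replicate number 2. In YFPpos cells (reported 5), a fit of only the groups compared gave 8 and limma-voom 9. Leaving out each library gave 45 to 48, 53 to 57, 46 to 51 and 60 to 65 called members against naive cells (YFPpos SGC0649, YFPneg SGC0649, YFPpos SGC0946 and YFPneg SGC0946), 35 to 48 and 33 to 48 in the sorts, 2 to 12 and 0 to 2 for SGC0946 in YFPpos and YFPneg cells, and 0 in the interaction.

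Other definitions of the family's share give smaller values by construction. Group means stayed highest in naive and lowest in YFPneg cells. Members with under 50% of their stretches shared took 1.41%, 1.15%, 1.16%, 1.29% and 1.31% of counts (naive, YFPneg SGC0649, YFPneg SGC0946, YFPpos SGC0649, YFPpos SGC0946). In the same order all members took 1.54%, 1.39%, 1.39%, 1.5% and 1.52% of all reads.

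Of 143 named gene comparisons, 83 kept direction and call in every alternative, 55 lost the call in at least 1 and 11 reversed, all with scaling to the family: against naive cells Rpl22 (0.0863) and Rplp0 (0.15) in YFPneg SGC0649 and Rpl13a (0.00367), Rps4x (0.0257), Rpl22 (0.10), Rplp0 (0.15) and Rpl36al (0.16) in YFPneg SGC0946, and in the sort Rpl3 (-0.0175), Rps4x (-0.0482) and Rps3 (-0.0621) with SGC0649 and Rps3 (-0.0137) with SGC0946. The offset for coding length was chosen after seeing the data.

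Whether the numbers in the titles pair YFPneg and YFPpos libraries of one culture is not settled. Deviations of same-numbered libraries from their group means correlated by 0.036 to 0.147 between the sorts. Those of different-numbered libraries correlated by -0.147 to 0.115 with SGC0649, where the deviations of the 2 YFPneg libraries mirror each other by construction. With SGC0946, different-numbered libraries correlated by -0.0722 to -0.0071 and same-numbered ones by 0.0405 to 0.111. In groups this small such correlations cannot exclude pairing, and the reported fit used no block. With the replicate number as a block, 52, 58, 54 and 64 members were called against naive cells, 47 and 48 in the sorts and 6 for SGC0946 in YFPpos cells; a block on the number in the titles gave 35 and 42 in the sorts. Depth limits most Rpl39l, Rpl24, Rpl23a and Rps29, the tested members with the fewest counts, and counting cannot separate fully shared members from their copies.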
